A study of Mus musculus with 9 samples.

Results

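Liver RNA was compared between wild-type (WT) mice injected intraperitoneally with retrorsine at 50 mg/kg and WT mice injected with NaCl, in tissue collected 2 h later. The comparison used the read counts of 6 of the 9 libraries of the series, 3 per group, over all 21936 genes of the deposited table. The remaining 3 libraries, from WT mice given 25 mg/kg, entered the estimate of the spread and a direct comparison of the doses. Strain, sex and age of the mice are not given in the labels used here. The labels number the samples of a group but do not say that each came from its own animal, so p-values reflect no more than the scatter among these samples. Libraries are called control (NaCl), treated (50 mg/kg) and low-dose (25 mg/kg), each with the replicate number of its label. The tissue is labelled liver. In such bulk tissue, fewer cells of a type and less RNA per cell cannot be told apart.

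Retrorsine is a pyrrolizidine alkaloid made by ragwort and related plants. Cytochrome P450 enzymes of the hepatocyte, chiefly of the CYP3A family, oxidise it to a reactive pyrrole ester that binds glutathione, proteins and DNA. Cells answer reactive electrophiles within hours through stress kinases and fast transcription factors such as ATF3 and the AP-1 family. They also use the electrophile sensor NRF2 and the eIF2alpha kinases, which slow translation. The title of the series names ATF3 and ferroptosis, a form of cell death by lipid peroxidation.

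The samples carried the transcripts of liver. The 18 hepatocyte markers summed to between 171600 and 205000 CPM in the 6 libraries (CPM are read counts scaled for library size by the trimmed mean of M-values). Alb, the albumin gene, had a log2 fold change of 0.07, with a 95% interval of -0.30 to 0.44. None of these 18 markers passed the threshold, and their median log2 fold change was 0.13. Library totals lay between 15571060 and 18691736 counts. The first principal component, with 40.6% of the variance, held the NaCl libraries at -66.75, -58.83 and -52.88 and the 50 mg/kg libraries at 37.79, 28.65 and 16.69. The second component, with 19.5%, set treated 3 apart at 64.84. Transcripts of pancreatic acinar cells were present in all 6 libraries and most abundant in control 1 and control 2, so their 29 tested markers are not read as liver genes below. They summed to 9225, 3061 and 413.1 CPM with NaCl and to 19.8, 500.5 and 38.71 CPM after 50 mg/kg, and 8 of them were called lower. That count was 0 without treated 1, 1 without control 1, 3 without treated 3, 4 without control 2 and 22 without treated 2.

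Of 12557 genes tested, 1896 (15.1%) differed between 50 mg/kg and NaCl, 890 higher (7.09%) and 1006 lower (8.01%). All tests of genes are edgeR quasi-likelihood tests with Benjamini-Hochberg adjustment over the 12557 genes and a threshold of 0.05. Of the calls, 46.9% were higher, and 35.5% (656 higher, 1194 lower) where libraries were scaled by their totals alone. The 3 libraries of each group did not overlap for 2083 genes that were higher (16.6%) and for 2318 that were lower (18.5%). A change shown to exceed 2-fold was found for 52 genes that rose and 27 that fell. The count of calls was 700 without control 3, 1092 without control 1, 1138 without control 2 and 1151 without treated 2. Where a list below had no rise or no fall, at most 2 members passed in that direction when 1 library was left out. In each of the 9 fits that left out 1 library, 264 of the rises and 368 of the falls were called again.

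The counts of called members over the gene lists fall into a group of lists with mostly rises and a group with mostly falls. Ribosome biogenesis, early transcription factors, p53 targets, cytoskeletal genes and ubiquitin genes stood on the first side. Hepatocyte transcription factors, TGF-beta and BMP signalling genes, chromatin regulators and nuclear receptors stood on the second. The P450, periportal, acute phase and respiratory chain lists had 1 call between them.

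**Figure D1:**
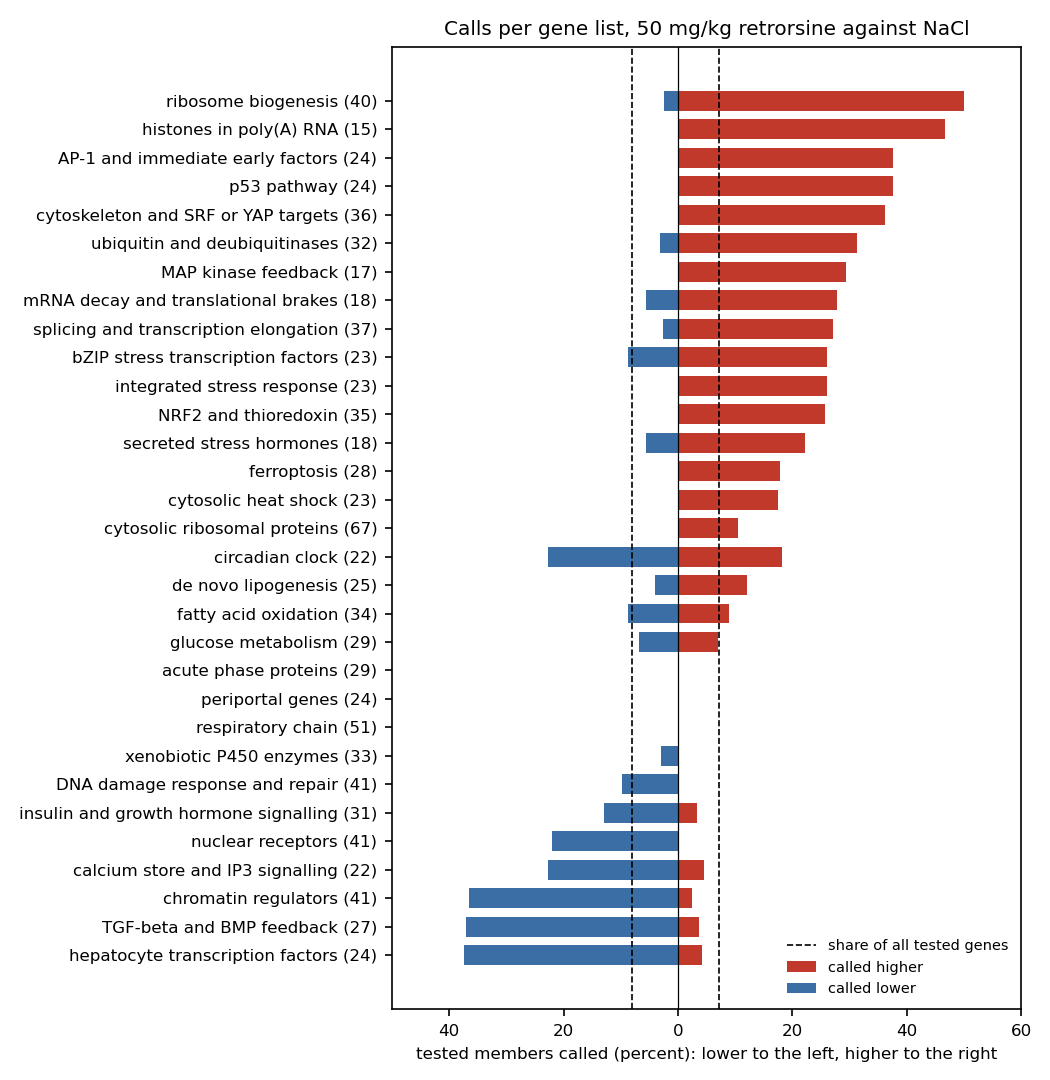
Percent of tested members called higher (red, to the right) and lower (blue, to the left) per gene list for 50 mg/kg against NaCl, with the number of tested members in parentheses and the shares of all tested genes (7.09% higher, 8.01% lower) as dashed lines. Of 40 ribosome biogenesis genes 20 were called higher, and of 24 hepatocyte transcription factors 9 were called lower.

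Promoters are shown for 4 genes that rose, because they hold the kinds of site through which stress-activated bZIP factors are known to act. The genes were picked after the search, from those with a match. Each line gives the 250 bases before the RefSeq transcription start, on build GRCm38.p6, with matches to the searched letters in capitals. Atf3 lies at chr1:191183334-191183583 on the minus strand, Ppp1r15a at chr7:45526269-45526518 on the minus strand, Plk2 at chr13:110394794-110395043 on the plus strand and Srxn1 at chr2:152105274-152105523 on the plus strand.
Atf3: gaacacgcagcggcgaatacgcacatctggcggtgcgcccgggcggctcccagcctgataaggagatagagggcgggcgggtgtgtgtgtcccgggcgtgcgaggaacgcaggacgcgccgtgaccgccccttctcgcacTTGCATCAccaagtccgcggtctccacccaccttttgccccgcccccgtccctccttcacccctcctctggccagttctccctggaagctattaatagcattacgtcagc
Ppp1r15a: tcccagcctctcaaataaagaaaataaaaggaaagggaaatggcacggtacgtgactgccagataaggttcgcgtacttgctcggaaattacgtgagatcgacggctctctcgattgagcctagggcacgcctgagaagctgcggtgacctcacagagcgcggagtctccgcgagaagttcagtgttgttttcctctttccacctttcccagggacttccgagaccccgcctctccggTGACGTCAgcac
Plk2: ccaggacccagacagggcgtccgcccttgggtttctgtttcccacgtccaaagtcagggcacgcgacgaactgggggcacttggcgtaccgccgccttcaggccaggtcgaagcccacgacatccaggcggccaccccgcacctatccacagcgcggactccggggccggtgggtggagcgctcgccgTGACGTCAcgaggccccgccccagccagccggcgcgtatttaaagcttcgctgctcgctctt
Srxn1: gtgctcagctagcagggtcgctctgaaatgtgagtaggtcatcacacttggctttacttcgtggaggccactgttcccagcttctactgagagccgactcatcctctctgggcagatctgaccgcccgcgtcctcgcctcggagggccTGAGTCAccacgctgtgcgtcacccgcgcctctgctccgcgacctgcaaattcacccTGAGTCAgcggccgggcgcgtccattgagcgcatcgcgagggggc
In the Atf3 promoter the capitals mark a match to TGATGNAA on the other strand, the letters of the composite C/EBP-ATF element, starting 110 bases before the start. This RefSeq start lies 34706 bases inside the gene's outer end in the deposited table. In Ppp1r15a and Plk2 they mark TGACGTCA, the cyclic AMP response element, 12 and 62 bases before the start. In Srxn1 they mark 2 matches to TGANTCA, the AP-1 letters, 102 and 45 bases before the start.

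A promoter of 300 bases (250 before and 50 after the start) was found for 10013 of the 12557 tested genes, and both strands were searched. TGACGTCA was present in 5.21% of 710 promoters of genes called higher, in 2.39% of 795 promoters of genes called lower and in 3.04% of all. For TGANTCA these shares were 7.89%, 4.53% and 5.12%, and for the E-box CACGTG they were 12.5%, 9.06% and 9.95%. TGACNNNGC, the core letters of the antioxidant response element, was found in 16.8%, 14.6% and 14.6%, and TGATGNAA in 1.83%, 1.76% and 2.3%. The median GC content was 60%, 65.7% and 60.7%. A match of TGANTCA can overlap one of TGACNNNGC.

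Several transcription factors of the early stress response rose after 50 mg/kg. Of 23 bZIP stress factors, 6 rose and 2 fell, with a median log2 fold change of 0.36 (0.00 over all tested genes). The count of 2 falls was 0 without control 1 or control 3 and 1 without treated 1, treated 2, treated 3 or control 2. Of 24 AP-1 and immediate early factors, 9 rose and none fell, with a median of 1.01. Atf3, which encodes a stress-induced bZIP repressor and activator, stood at 42.8, 7.02 and 12.7 CPM in the controls and at 193, 527 and 489.6 CPM after 50 mg/kg. The lowest treated library was above the highest control library (log2 fold change 4.28, SE 0.66, adjusted p = 0.00453). Klf6, a zinc finger factor of liver injury, stood at 21.7, 7.07 and 16 CPM with NaCl and at 60.6, 115 and 167 CPM after 50 mg/kg, again without overlap (log2 fold change 2.94, SE 0.48, adjusted p = 0.00544). Jund, an AP-1 subunit, went from 6.45, 3.69 and 4.12 to 15, 23.5 and 17 CPM (log2 fold change 1.97, SE 0.27, adjusted p = 0.00294). Jun itself was at 113, 30.7 and 61 CPM with NaCl and at 153, 568 and 624 CPM after 50 mg/kg, where replicate 1 stood closer to the highest control than to the other treated libraries (log2 fold change 2.72, SE 0.60, adjusted p = 0.0165). The small Maf gene Mafk rose by 2.03 on the log2 scale, the AP-1 regulated early gene Ier5 by 1.98, and Crem, which binds cyclic AMP response elements, by 1.65.

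Other members of the early class did not pass, and these were chosen after their values were seen. Fos was at 14.1, 4.14 and 8.54 CPM with NaCl and at 6.44, 12.3 and 21 CPM after 50 mg/kg (adjusted p = 0.46). Egr1 was at 172, 15.6 and 83.8 CPM with NaCl and at 10.02, 65.4 and 102 CPM after 50 mg/kg (adjusted p = 0.661), and Junb at 320.5, 87.4 and 217 CPM with NaCl and at 127, 218 and 515 CPM after 50 mg/kg (adjusted p = 0.704). In all 3 genes the groups overlapped, control 1 was the highest control library and treated 1 the lowest treated library. The count of 9 rises among early factors was 4 without control 3 and 5 without treated 2 or control 2. The list's mean centred log2 CPM was 0.26, -1.16 and -0.51 with NaCl and -0.04, 0.98 and 1.28 after 50 mg/kg. The NF-kB list was highest in control 1 and treated 3 as well (1.27 and 2.17). The part of this difference between libraries in the early gene calls was not tested beyond leaving them out: 8 early factors were called higher without control 1, 6 without treated 3 and 9 without both.

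**Figure D2:**
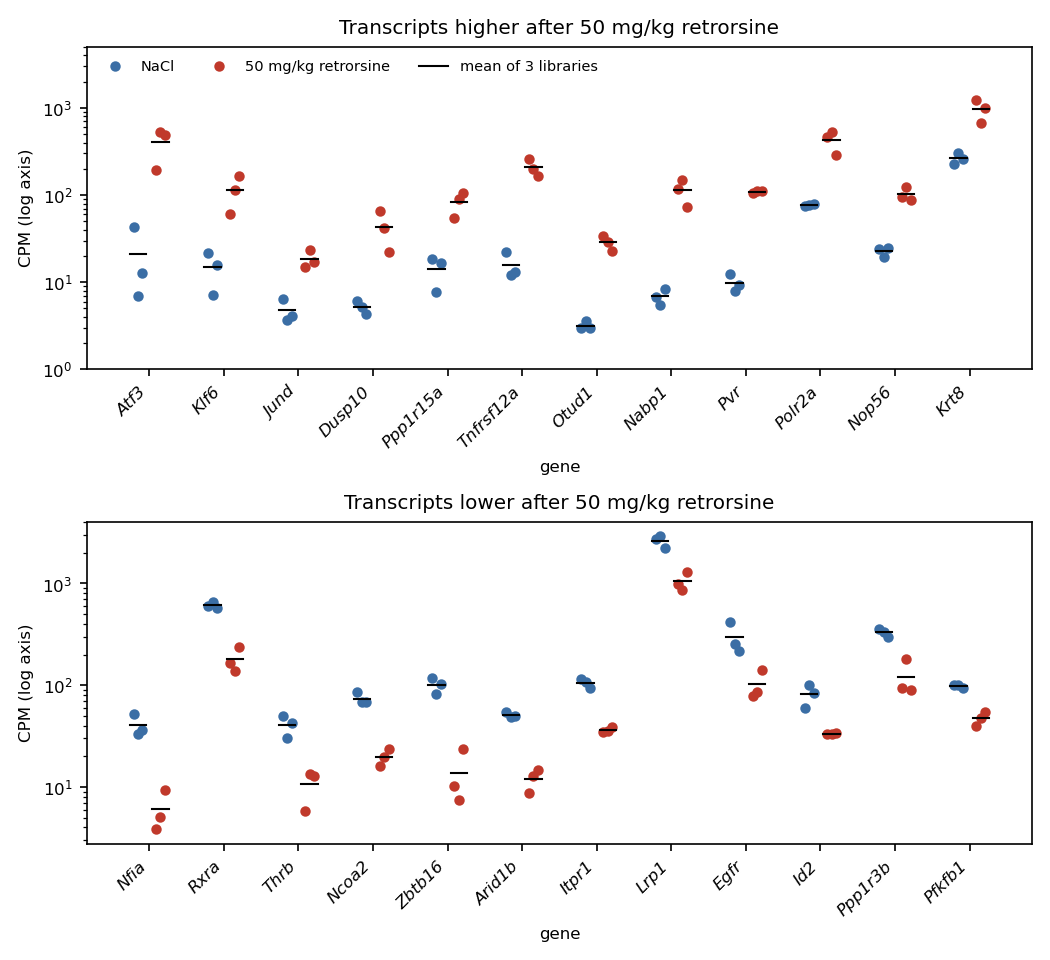
CPM on a log axis for 12 genes that rose and 12 that fell, with 1 point per library (NaCl blue, 50 mg/kg red) and the mean of 3 libraries as a black bar. In every gene drawn the 3 treated libraries lie outside the range of the 3 NaCl libraries, as for Otud1 (2.96, 3.59 and 2.96 against 34, 29.2 and 22.8 CPM) and Rxra (595, 665 and 576 against 166, 137 and 237 CPM).

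Some feedback genes of MAP kinase signalling and of mRNA turnover rose as well. Of 17 MAP kinase feedback genes, 5 rose and none fell (median log2 fold change 1.03). Dusp10, a phosphatase of JNK and p38, stood at 6.05, 5.25 and 4.32 CPM with NaCl and at 65.3, 42.2 and 22.1 CPM after 50 mg/kg (log2 fold change 3.05, SE 0.37, adjusted p = 0.00216). Dusp8, which acts on the same kinases, went from 22.4, 3.33 and 8.43 to 98.6, 123 and 139 CPM. Dusp6, which inactivates ERK, went from 31.3, 26.2 and 45.7 to 141, 186 and 131 CPM (log2 fold change 2.15, SE 0.29, adjusted p = 0.00294). In these 3 phosphatases each treated library exceeded each control library. Among 18 genes of mRNA decay and translational braking 5 rose and 1 fell. Btg1 and Tob2, which recruit deadenylases to mRNA, rose by 1.64 (SE 0.27) and 1.19 (SE 0.15) on the log2 scale. Pdcd4, an inhibitor of the helicase eIF4A, fell from 53.6, 44.4 and 51.5 to 12.3, 18.8 and 21.4 CPM (log2 fold change -1.51, SE 0.30, adjusted p = 0.0112). Its call was lost in 1 of 20 alternatives (adjusted p up to 0.0636).

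Of 23 integrated stress response genes, 6 rose (26.1%, against 7.09% of all tested genes) and none fell. Their log2 fold changes ran from -1.61 to 3.22 (median 0.45), and the gene at 3.22 is not named here. Ppp1r15a, the phosphatase subunit that reverses eIF2alpha phosphorylation, went from 18.4, 7.63 and 16.6 to 54.9, 90.3 and 105 CPM (log2 fold change 2.56, SE 0.36, adjusted p = 0.00333). Ddit3, which encodes CHOP, went from 6.72, 5.25 and 5.17 to 14.3, 37.6 and 23.9 CPM (log2 fold change 2.15, SE 0.41, adjusted p = 0.0106). The heavy subunit of amino acid exchangers, Slc3a2, was at 49.3, 51.7 and 48.3 CPM with NaCl and at 92.2, 91.1 and 76.3 CPM after 50 mg/kg, a smaller rise with little spread (log2 fold change 0.80, SE 0.15, adjusted p = 0.00912). The call was lost for Ddit3 in 1 of 20 alternatives (adjusted p up to 0.0522) and for Slc3a2 in 1 of 20 alternatives (adjusted p up to 0.066). Atf4 itself, chosen after its values were seen, did not pass (174, 102 and 129.6 against 141, 197 and 215 CPM, adjusted p = 0.202). Chac1, a glutathione-degrading target of ATF4, was at 4.37, 4.75 and 7.43 CPM with NaCl and at 0.972, 2.4 and 3.82 CPM after 50 mg/kg (adjusted p = 0.25).

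Several genes that act in cell survival and growth control rose with no overlap between groups, which some of the rules for naming genes required. Tnfrsf12a, the receptor of the cytokine TWEAK, stood at 22.1, 12.2 and 13 CPM with NaCl and at 257, 202 and 167 CPM after 50 mg/kg (log2 fold change 3.73, SE 0.27, adjusted p = 0.000336). Pvr, the poliovirus receptor homolog and ligand of natural killer cell receptors, went from 12.6, 7.83 and 9.34 to 104, 111 and 112 CPM (log2 fold change 3.46, SE 0.26, adjusted p = 0.000357). Its treated libraries were nearly alike. Nabp1, a single-stranded DNA binding protein, went from 6.72, 5.51 and 8.43 to 118, 149 and 72.4 CPM, a 16.4-fold rise (log2 fold change 4.03, SE 0.40, adjusted p = 0.0013). Mcl1 and Bcl2l11 encode an inhibitor and an activator of apoptosis. They were the 2 of 31 apoptosis genes that rose, from 116, 66.2 and 97.2 to 184, 226 and 189.9 CPM and from 9.28, 6.97 and 6.53 to 19.3, 35.2 and 40.7 CPM. None of the 31 fell, and the 6.45% that rose was near the 7.09% of all tested genes. Follistatin (Fst), which binds activin, was under 1 CPM in all NaCl libraries (0.336, 0.354 and 0.602) and at 12.8, 15.5 and 4.5 CPM after 50 mg/kg. The EGF receptor ligand Hbegf went from 1.41, 2.43 and 1.31 to 5.83, 10.7 and 14.8 CPM (log2 fold change 2.60, SE 0.40, adjusted p = 0.00444).

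Among 24 p53 pathway genes 9 rose and none fell (median log2 fold change 0.88), and the count was 5 without control 3. Several of them stand in other lists as well. The kinase gene Plk2 went from 4.64, 5.46 and 4.87 to 17.3, 28.2 and 20.2 CPM (log2 fold change 2.13, SE 0.24, adjusted p = 0.00174). Plk3 went from 237, 97.6 and 185 to 568, 611 and 1205 CPM, highest in replicate 3. Cdkn1a, which encodes the cell cycle inhibitor p21, was at 114, 36.2 and 98.8 CPM with NaCl and 179, 295 and 224 CPM after 50 mg/kg (log2 fold change 1.49, SE 0.38, adjusted p = 0.0296), with the call lost in 4 of 20 alternatives (adjusted p up to 0.086), including those without treated 2 and control 3. The cell cycle inhibitor Cdkn2b rose from 0.336, 0.0505 and 0.351 to 3.83, 3.9 and 1.29 CPM, with a call lost in 1 of 20 alternatives (adjusted p up to 0.0554). Bbc3 and Ccng1, p53 targets chosen after their values were seen, did not pass (adjusted p = 0.173 and 0.973).

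Among the 12 rises with the lowest p were genes outside the stress lists. Ccdc120, a centriolar protein, went from 6.32, 6.16 and 7.78 to 48.1, 67.1 and 84.5 CPM (log2 fold change 3.30, SE 0.23, adjusted p = 0.000336). The phosphate importer Slc20a1 went from 27, 21 and 21.5 to 178, 106 and 109.7 CPM (log2 fold change 2.50, SE 0.23, adjusted p = 0.0013). Lpar2, a receptor of lysophosphatidic acid, was below 1 CPM in each NaCl library and at 6.74, 8.45 and 6 CPM after 50 mg/kg. Ncdn went from 20.9, 20.5 and 17 to 136, 102 and 93 CPM and Fam53c from 28.1, 21.9 and 23.6 to 105, 117 and 79.3 CPM. In these 5 genes the highest NaCl library stayed below the lowest treated library, which the rule for naming them required. Apbb3, an adaptor of the amyloid precursor protein, also rose (log2 fold change 2.12, SE 0.21, adjusted p = 0.0013), but it overlaps Slc35a4, and their reads cannot be told apart there. Rcan1, an inhibitor of the phosphatase calcineurin, had one of the largest rises in CPM, from 234, 42.8 and 58.1 to 679.6, 484 and 938 CPM. Control 1 was above the other controls, and this call was lost in 2 of 20 alternatives (adjusted p up to 0.0747), the fits without control 2 and control 3.

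Next to Plk3, 2 further genes stood among the large rises. Plk3 (chromosome 4, 117128655 to 117133963, minus strand) ends within Tctex1d4 (117126794 to 117128738, plus strand), and Btbd19 (117119219 to 117125725, minus strand) follows 1069 bases further. Tctex1d4 was at 0, 0.101 and 0.151 CPM with NaCl and at 3.83, 18.5 and 12.3 CPM after 50 mg/kg (adjusted p = 0.00348), and Btbd19 was at 1.75, 1.92 and 1.61 CPM with NaCl and at 23.9, 63.4 and 62.4 CPM after 50 mg/kg (adjusted p = 0.00158). Plk3 and Tctex1d4 run toward each other, and Btbd19 lies on the strand of Plk3 beyond its 3′ end. The levels of both genes were below that of Plk3 in each library. The counting is not stated to use strand, so reads of Plk3 and Tctex1d4 cannot be told apart where they overlap. The same uncertainty holds for other named genes whose annotated span overlaps another gene, among them Acaca, Apbb3, Bcl6, Brd2, Chdh, Ddit3, Dusp1, Dusp10, Gnl3, Itpkc, Lrfn4, Mafk, Ncor1, Nfia, Nop56, Pfkfb1, Ppp1r15a, Sqstm1, Usp2, Wdr7 and Zyx. Btbd19 was chosen after its values were seen.

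Genes of the transcription machinery rose in a small group. Of 37 genes of splicing and transcription elongation, 10 rose and 1 fell, with a median log2 fold change of 0.44. Polr2a, the largest subunit of RNA polymerase II, stood at 75.2, 76 and 78.2 CPM with NaCl and at 459, 534 and 286 CPM after 50 mg/kg. The control libraries were nearly equal, and the treated libraries were all far above them (log2 fold change 2.48, SE 0.30, adjusted p = 0.00207). Brd2, a reader of acetylated histones, went from 179.5, 109.9 and 139 to 462, 813 and 659.9 CPM (log2 fold change 2.18, SE 0.28, adjusted p = 0.00274). Hexim1, an inhibitor of the elongation kinase P-TEFb that was chosen after its values were seen, went from 25.5, 30.9 and 26.3 to 89.7, 251 and 51.5 CPM (log2 fold change 2.24, SE 0.50, adjusted p = 0.0173). Its call was lost in 4 of 20 alternatives (adjusted p up to 0.0679), including those without control 1, control 2 and control 3. The SR splicing factor Srsf7 rose by 0.93 on the log2 scale (SE 0.18). The Mediator kinase-module gene Med13l was the fall of this list, from 35.5, 26 and 30.2 to 6.26, 3.38 and 10.1 CPM. The count of 10 rises was 2 without control 3, 4 without control 2 and 5 without treated 2 or control 1.

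Ribosome biogenesis had the highest share of rises among the lists with 20 or more tested members. The process makes ribosomal RNA in the nucleolus and folds and trims it into subunits, and many of its genes are targets of MYC. Of 40 genes 20 rose and 1 fell, with a median log2 fold change of 0.70. No overlap between groups in the higher direction was seen for 30 of the 40, and for 16.6% of all tested genes. Nop56, a core protein of box C/D small nucleolar particles, stood at 24.1, 19.6 and 24.4 CPM with NaCl and at 94.4, 124 and 88.3 CPM after 50 mg/kg (log2 fold change 2.17, SE 0.24, adjusted p = 0.00171). Gnl3, a nucleolar GTPase, went from 16.3, 10 and 15.1 to 37.3, 44.6 and 38.1 CPM, Nop2, a ribosomal RNA methyltransferase, from 33.7, 31.2 and 30.9 to 79.6, 90.8 and 83.4 CPM, and Wdr74 from 20.6, 18.7 and 16.1 to 41, 42.1 and 35.9 CPM. In these 4 genes the treated libraries stayed within a narrow range above all controls. Ddx10, a nucleolar helicase whose gene spans 149 kb, was the fall (log2 fold change -1.12, SE 0.29, adjusted p = 0.0321), with its call lost in 8 of 20 alternatives (adjusted p up to 0.128), including those without low-dose 3, treated 1, treated 3, control 1, control 2 and control 3. The number of rises was 9 without control 3 and 10 without control 2. Myc rose from 11, 11.9 and 4.47 to 41.7, 77.2 and 77.5 CPM (log2 fold change 2.84, SE 0.40, adjusted p = 0.00324).

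**Figure D3:**
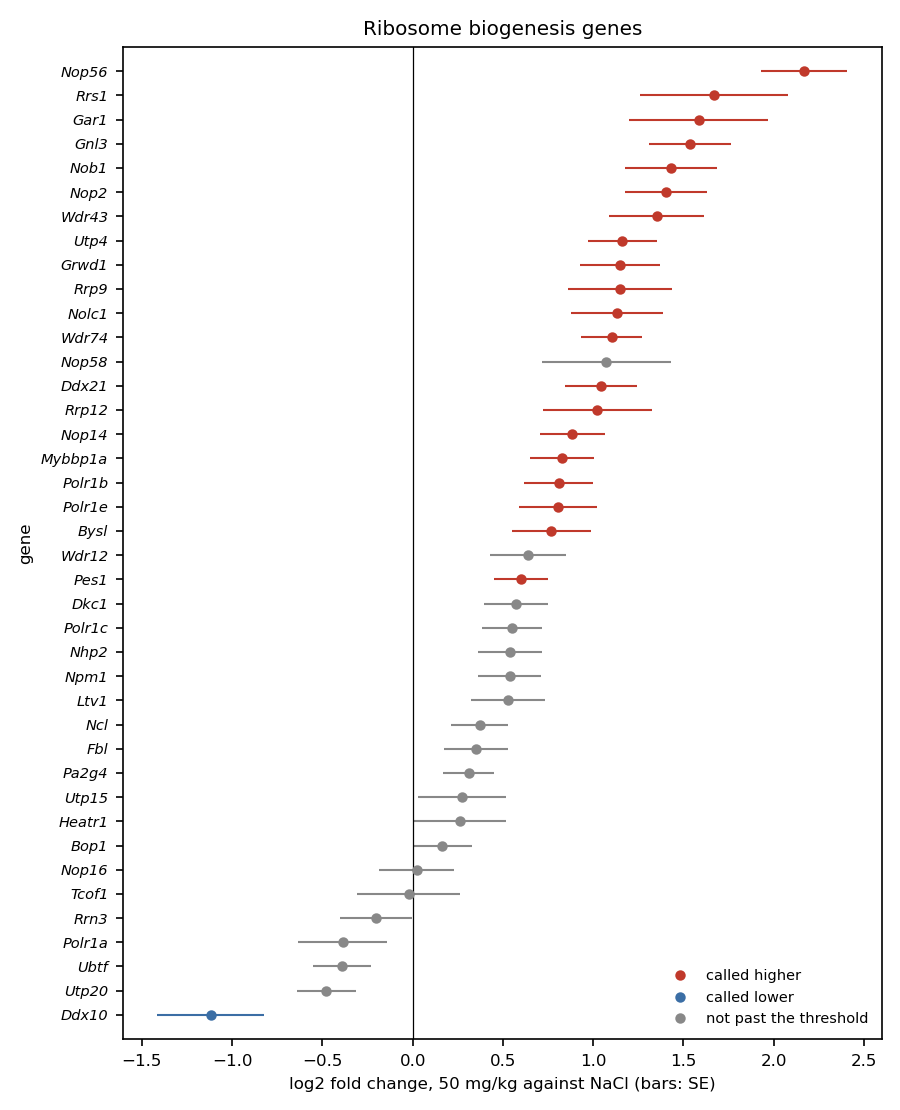
Log2 fold change of 50 mg/kg against NaCl with its SE for the 40 tested ribosome biogenesis genes, coloured by call. The values run from -1.12 for Ddx10 to 2.17 for Nop56, and 34 of 40 lie above 0.

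Ribosomal protein genes moved less. Of 67 cytosolic ribosomal protein genes 7 rose (10.4%) and none fell. The 7 are among 63 members that span up to 10.4 kb, where 11.1% rose against 12.9% of all tested genes of that span, so the share was not above that of other short genes. Of the 67, 41 had all treated libraries above all controls, as had 16.6% of all tested genes. Their median log2 fold change over the 67 was 0.43, against 0.31 for all tested genes of up to 10.4 kb. The share without overlap was not taken for short genes alone. Rpl10a went from 395, 408 and 332 to 567, 664 and 654 CPM (log2 fold change 0.73, SE 0.14, adjusted p = 0.0102). Many processed copies of these genes make the counts uncertain. The number of rises was 0 without control 3, 1 without treated 2, 2 without control 1, 3 without low-dose 3 or control 2 and 4 without low-dose 1, low-dose 2 or treated 3. The translation initiation genes Eif4a1 and Eif1 rose by 0.86 (SE 0.16) and 0.97 (SE 0.20) on the log2 scale. They were among 4 rises (10.5%, against 7.09% of all tested genes) in 38 translation factor and tRNA synthetase genes. The list had 1 fall (2.63%, against 8.01%). Falls in this list numbered 0 without control 3 and 2 without control 1.

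Cytoskeletal genes formed a further group of rises. Of 36 cytoskeletal genes and targets of SRF or YAP, 13 rose and none fell (median log2 fold change 0.39), and the count was 8 without control 3. Krt8 and Krt18 encode the keratin pair of the hepatocyte's intermediate filaments, known to be induced in stressed liver. Krt8 stood at 229.9, 303 and 256 CPM with NaCl and at 1244, 668 and 1008 CPM after 50 mg/kg (log2 fold change 1.89, SE 0.27, adjusted p = 0.00332). Krt18 went from 189.7, 172 and 202 to 734, 447 and 588 CPM. Both keratins were highest in replicate 1 and lowest in replicate 2 of the treated group. The beta-tubulin gene Tubb6 went from 38.5, 45.4 and 31.2 to 180.4, 168 and 257 CPM and Tubb2a from 391.5, 379 and 279.9 to 1279.9, 868 and 746 CPM. Zyx, a focal adhesion protein, went from 70.8, 65.1 and 46 to 208, 172 and 172 CPM (log2 fold change 1.60, SE 0.22, adjusted p = 0.00295). Ccn1, a matricellular target of YAP, rose from 3.56, 2.53 and 3.92 to 10.4, 12.3 and 13.9 CPM. Keratin and tubulin genes have close relatives or pseudogenes whose reads may have been split. The matrix protease Adamts1 went from 50.4, 15 and 23.2 to 161, 218 and 216 CPM (log2 fold change 2.75, SE 0.47, adjusted p = 0.00621).

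Some genes of ubiquitin and chaperones rose, and autophagy genes were called in both directions. Of 32 ubiquitin and deubiquitinase genes 10 rose and 1 fell. Otud1, a deubiquitinase, had the lowest p of all rises, from 2.96, 3.59 and 2.96 to 34, 29.2 and 22.8 CPM (log2 fold change 3.17, SE 0.20, adjusted p = 0.000336). The polyubiquitin gene Ubb went from 427, 427 and 329 to 1063, 1192 and 1044 CPM (log2 fold change 1.48, SE 0.22, adjusted p = 0.00422). The fall was Usp2, a clock-controlled deubiquitinase, from 35.4, 26.9 and 27.3 to 4.19, 13.8 and 9 CPM, with its call lost in 1 of 20 alternatives (adjusted p up to 0.0636). The number of rises was 4 without control 3 and 6 without treated 2 or control 2. Sqstm1, the p62 autophagy receptor, went from 550.1, 455 and 436 to 1072, 902 and 1393 CPM (log2 fold change 1.22, SE 0.19, adjusted p = 0.00437). Tfe3, a transcription factor of lysosomal genes, went from 59.4, 37.7 and 45.3 to 146, 111 and 155 CPM. Of 33 autophagy and lysosome genes 2 rose (6.06%) and 3 fell (9.09%), near the 7.09% and 8.01% of all tested genes. The falls numbered 0 without control 3, and 2 of them were among 7 genes that span over 55.1 kb. Among 23 cytosolic heat shock genes 4 rose, including Dnajb2 by 1.26 (SE 0.19) and Bag3 by 1.29 (SE 0.30) on the log2 scale, and the count was 2 without control 2 or control 3. Bag3 lost its call in 2 of 20 alternatives (adjusted p up to 0.0803), the fits without control 2 and control 3. Of 28 endoplasmic reticulum chaperone and degradation genes none rose and 2 fell (7.14%, near the 8.01% of all tested genes). The falls were 1 without low-dose 1, treated 2, treated 3, control 1 or control 3. Neither is among the 3 members that span over 55.1 kb. One was Sel1l, a scaffold of the degradation complex, from 178, 139 and 151 to 62.8, 64.5 and 52.9 CPM (log2 fold change -1.38, SE 0.17, adjusted p = 0.00242).

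Histone genes are measured here only through polyadenylated RNA, which most replication-dependent histone mRNAs lack. Of 15 tested, 7 rose and none fell, and the count was 4 without treated 1, treated 2 or control 3. H3f3b, a replication-independent gene of histone H3.3, went from 245, 111 and 184 to 653, 874 and 1377 CPM (log2 fold change 2.43, SE 0.33, adjusted p = 0.00294). H1f2, a linker histone, went from 9.08, 3.23 and 2.71 to 32.7, 35.7 and 15.4 CPM. Near-identical histone copies make these counts uncertain.

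Among 35 NRF2 and thioredoxin genes 9 rose (25.7%, against 7.09% of all tested genes) and none fell (median log2 fold change 0.43). Srxn1, which reduces overoxidised peroxiredoxins, was at 46.7, 45.2 and 51.4 CPM with NaCl and at 687, 403 and 375 CPM after 50 mg/kg (log2 fold change 3.35, SE 0.24, adjusted p = 0.000336). Pgd, an NADPH-producing enzyme of the pentose phosphate pathway, went from 81.6, 93.3 and 93.4 to 202, 213 and 187 CPM with little spread (log2 fold change 1.17, SE 0.15, adjusted p = 0.00274). Nfe2l2, which encodes NRF2, and Bach1, which encodes a repressor of the same elements, both rose, from 39.3, 31.3 and 32.7 to 75, 87.8 and 78.5 CPM and from 114, 66.5 and 90.7 to 257, 174 and 244 CPM. The NRF2 targets Gclm and Nqo1, chosen after their values were seen, did not pass, unlike Srxn1 and Pgd. Gclm was at 168, 160.1 and 139.8 CPM with NaCl and at 147, 181 and 168 CPM after 50 mg/kg (adjusted p = 0.806), and Nqo1 was at 2.76, 2.98 and 2.71 CPM with NaCl and at 4.31, 2.79 and 4.97 CPM after 50 mg/kg (adjusted p = 0.283). Hmox1, the heme oxygenase, was at 228, 24.1 and 50.6 CPM with NaCl and at 43, 50.7 and 310.1 CPM after 50 mg/kg, so the groups overlapped (adjusted p = 0.782). Gpx1, a glutathione peroxidase, rose from 2024, 2024 and 1915 to 3097, 3328 and 3234 CPM (log2 fold change 0.70, SE 0.14, adjusted p = 0.0127), with its call lost in 3 of 20 alternatives (adjusted p up to 0.0793), including that without control 3. The count of 9 rises was 3 without control 2 or control 3 and 5 without control 1.

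Of 28 ferroptosis genes 5 rose (17.9%) and none fell: Atf3, Nfe2l2, Slc3a2, Sat1 and Gch1. Sat1, which acetylates polyamines, went from 63.9, 34.8 and 63.3 to 119, 147 and 181 CPM (log2 fold change 1.46, SE 0.25, adjusted p = 0.00608). Gch1, which starts the synthesis of the lipid antioxidant tetrahydrobiopterin, had a smaller rise (log2 fold change 0.77, SE 0.23, adjusted p = 0.0477) whose call was lost in 14 of 20 alternatives (adjusted p up to 0.151), including those without low-dose 1, low-dose 2, low-dose 3, treated 1, treated 2, treated 3, control 2 and control 3. Gpx4, the peroxidase that removes lipid hydroperoxides, was at 173, 204 and 166 CPM with NaCl and 190.0, 277 and 265 CPM after 50 mg/kg. Its groups overlapped, and the 95% interval of its log2 fold change ran from 0.01 to 0.86 (adjusted p = 0.154). Acsl4, which loads polyunsaturated fatty acids into lipids, had an interval of -0.58 to 0.55. Slc7a11, the cystine importer, and Ptgs2 were too low to be tested, each under 1 CPM in every NaCl and 50 mg/kg library.

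The falls were concentrated in genes with long genomic spans. The median span was 11.6 kb for genes called higher, 112 kb for genes called lower and 22.7 kb for genes that did not pass. Among the 3139 tested genes that span over 55.1 kb, called long genes here, 25.5% were called lower and 1.5% higher, with a median log2 fold change of -0.57. Among the 3140 of up to 10.4 kb, 0.86% were called lower and 12.9% higher, with a median of 0.31. Counts of falls in the lists that follow are therefore given with the number among long genes. For the lists with mostly rises, the members of up to 10.4 kb that rose were 9 of 14 in ribosome biogenesis (64.3%), 9 of 17 cytoskeletal genes (52.9%), 7 of 18 early factors (38.9%) and 5 of 14 p53 pathway genes (35.7%). The part of gene span in any single fall was not tested.

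**Figure D4:**
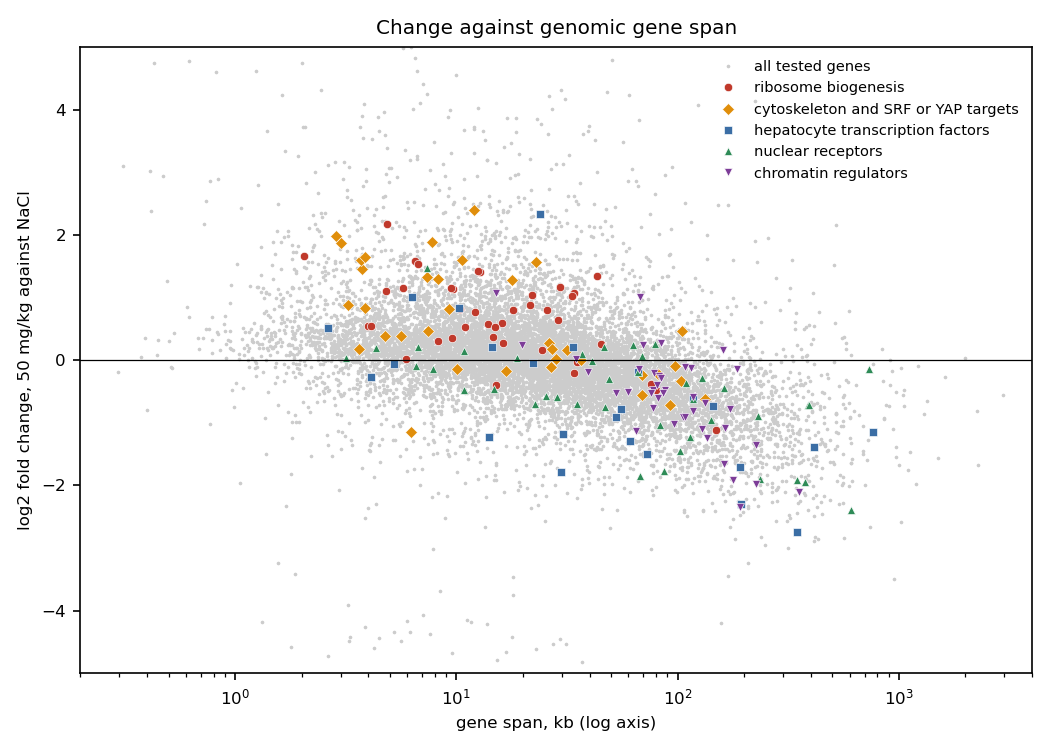
Log2 fold change of 50 mg/kg against NaCl over the genomic span of each tested gene in kb (log axis), with all genes in grey and 5 gene lists in colour; 28 genes beyond a log2 fold change of 5 in either direction are outside the plot. Of 41 chromatin regulators, 36 lie above 55.1 kb, and 1 of these was called higher and 15 lower.

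The 12 falls with the lowest p were all long genes. Tns1, which links actin to focal adhesions, was at 186, 163 and 167 CPM with NaCl and at 62, 60.1 and 66.4 CPM after 50 mg/kg (log2 fold change -1.45, SE 0.13, adjusted p = 0.00116). Mical2, an actin oxidase, went from 95, 76 and 76.5 to 28, 22.6 and 26 CPM (log2 fold change -1.69, SE 0.16, adjusted p = 0.0013). Tnrc6b, a scaffold of microRNA silencing, went from 40.5, 33.8 and 39.8 to 8.38, 7.34 and 6.95 CPM (log2 fold change -2.33, SE 0.24, adjusted p = 0.0014). The replicates of each group were close, and their ranges lay far apart, though the rule for naming them took only genes without overlap. Adcy9, an adenylyl cyclase, went from 21.5, 27.8 and 23.1 to 5.47, 6.56 and 7.09 CPM and Wdr7 from 33.3, 28.5 and 28 to 4.98, 6.82 and 7.16 CPM. Sox5, a transcription factor gene of 954 kb, had one of the largest falls, from 18.2, 16.4 and 18.7 to 0.911, 2.21 and 1.64 CPM (log2 fold change -3.49, SE 0.56, adjusted p = 0.00524). Rfx3, a factor of ciliary genes, went from 2.35, 1.97 and 2.81 to 0.364, 0.26 and 0.273 CPM. Among abundant transcripts, Prpf8, a core protein of the spliceosome whose gene spans 22.6 kb, went from 481, 446 and 434 to 249, 282 and 284 CPM (log2 fold change -0.74, SE 0.13, adjusted p = 0.00767). Chdh, which oxidises choline to betaine aldehyde, went from 279.9, 317 and 291 to 149, 109.9 and 169.8 CPM, and Bhmt, which uses betaine to methylate homocysteine, from 2102, 1407 and 1654 to 522, 997 and 1029 CPM. The calls were lost for Prpf8 in 1 of 20 alternatives (adjusted p up to 0.0561), for Chdh in 1 of 20 alternatives (adjusted p up to 0.0677) and for Bhmt in 10 of 20 alternatives (adjusted p up to 0.122), including those without low-dose 3, treated 1, treated 2, control 1, control 2 and control 3.

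Transcription factors that maintain the hepatocyte were among the falls. Of 24 such factors 9 fell and 1 rose (the rises were 0 without control 3 and 2 without treated 3 or control 1), with a median log2 fold change of -0.76. Within the long genes 7 of 11 (63.6%) fell, against 25.5% of all genes there. Nfia, a nuclear factor I gene, was at 52.5, 33.1 and 36.6 CPM with NaCl and at 3.83, 5.07 and 9.4 CPM after 50 mg/kg (log2 fold change -2.74, SE 0.43, adjusted p = 0.00507). Gata4, a zinc finger factor of liver development, went from 25.9, 30.1 and 31.3 to 12.9, 10.7 and 7.29 CPM and Onecut2 from 71.3, 48.1 and 47.7 to 23.7, 19.6 and 25.1 CPM. Zbtb20 went from 85.4, 61.3 and 65 to 32.2, 28.7 and 34.9 CPM (log2 fold change -1.14, SE 0.18, adjusted p = 0.00528). Tcf7l2, the factor of canonical Wnt signalling, went from 8.13, 9.75 and 9.89 to 2.92, 2.08 and 3.54 CPM. Treated libraries were below all controls in each of these. The rise was Bcl6, a repressor chosen after its values were seen, from 21.1, 9.04 and 12.9 to 35.2, 80.3 and 102 CPM, with its call lost in 1 of 20 alternatives (adjusted p up to 0.0599), the fit without control 3.

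Hnf4a, Foxa2 and Cebpa, factors central to hepatocyte identity and again chosen after their values were seen, did not pass. Hnf4a was at 1094, 1042 and 1099 CPM with NaCl and at 1183, 809 and 844 CPM after 50 mg/kg, and the 95% interval of its log2 fold change was -0.69 to 0.31. For Foxa2 the interval was -0.88 to 0.34. Cebpa was at 409, 428 and 345 CPM with NaCl and at 447, 606 and 637 CPM after 50 mg/kg (adjusted p = 0.102). Hnf4a spans 66.1 kb, and Cebpa and Foxa2 span 2.64 and 4.09 kb.

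Of 41 nuclear receptors and their cofactors 9 fell and none rose, and the count was 5 without control 3. Rxra encodes the shared partner of the metabolic receptors. It stood at 595, 665 and 576 CPM with NaCl and at 166, 137 and 237 CPM after 50 mg/kg (log2 fold change -1.76, SE 0.27, adjusted p = 0.00422). The coactivator Ncoa2 went from 85.1, 68.3 and 68.2 to 16, 19.9 and 23.4 CPM (log2 fold change -1.90, SE 0.21, adjusted p = 0.00171), and the corepressor Ncor1 from 133, 104 and 105 to 60.2, 58.1 and 58.7 CPM. Thrb, the thyroid hormone receptor of liver, went from 49.4, 30.6 and 42.4 to 5.77, 13.4 and 12.7 CPM. Ppara, which drives fatty acid oxidation genes, fell from 78.1, 111 and 108 to 18.2, 40.0 and 23.9 CPM. The xenobiotic receptors did not pass. The interval of the log2 fold change was -0.28 to 0.71 for Nr1i2, which encodes PXR, and -0.37 to 0.78 for Nr1i3, which encodes CAR, both chosen after their values were seen. Among the long genes 8 of 22 members (36.4%) fell.

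In TGF-beta and BMP signalling, receptors, SMAD genes and their regulators were among the falls. Of 27 genes 10 fell and 1 rose (median log2 fold change -0.52), and the count of falls was 6 without control 1 or control 3. The BMP receptor Bmpr1a went from 19.8, 15.6 and 18.5 to 7.05, 4.22 and 5.45 CPM. Ski, a repressor of SMAD proteins, went from 80.4, 69.4 and 69.5 to 29.8, 29.9 and 31.3 CPM (log2 fold change -1.27, SE 0.18, adjusted p = 0.00338), and the ubiquitin ligase Smurf1 from 21, 21.6 and 23.5 to 7.05, 6.37 and 8.65 CPM. Id2, a target of BMP signalling that spans only 3.34 kb, went from 59.6, 101 and 83.5 to 33.4, 33.5 and 33.7 CPM, with nearly equal treated libraries (log2 fold change -1.28, SE 0.23, adjusted p = 0.0078). Tgif1, a repressor of TGF-beta responses, was the rise, from 16.3, 8.79 and 13.2 to 47.4, 51.3 and 53.6 CPM (log2 fold change 1.99, SE 0.23, adjusted p = 0.00182). Bmpr1a lost its call in 1 of 20 alternatives (adjusted p up to 0.0655). Among the long genes 8 of 14 members (57.1%) fell.

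Of 41 chromatin regulators 15 fell and 1 rose. The falls were 8 without control 1 or control 3 and 9 without treated 2, and the rises 0 without treated 2, control 2 or control 3. Kmt2c, a histone H3 lysine methyltransferase of enhancers, went from 34.6, 24.4 and 26.8 to 7.11, 6.63 and 8.11 CPM (log2 fold change -1.97, SE 0.20, adjusted p = 0.0013). Arid1b, a subunit of the SWI/SNF remodeller, went from 55.1, 48.8 and 50.1 to 8.63, 12.7 and 14.7 CPM, and the remodeller gene Chd9 from 42.2, 25.5 and 31.6 to 13.7, 12.7 and 12.4 CPM. Among the long genes 15 of 36 members (41.7%) fell, against 25.5% of all genes there. Among 41 DNA damage response genes none rose and 4 fell (9.76%, near the 8.01% of all tested genes). The 4 were the kinases Atm, Atr and Prkdc and the MRN subunit Rad50. Atm was at 4.3, 4.6 and 5.12 CPM with NaCl and at 1.15, 1.62 and 1.16 CPM after 50 mg/kg (log2 fold change -1.83, SE 0.34, adjusted p = 0.00931). The count of 4 was 1 without control 3 and 2 without treated 1, control 1 or control 2. All 4 were among the 14 long genes of the list (28.6%, near the 25.5% of all long genes).

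Several receptor and second messenger genes fell. The IP3 receptors release calcium from the endoplasmic reticulum. Itpr1 went from 114, 107 and 93.8 to 34.9, 35.5 and 39.3 CPM (log2 fold change -1.52, SE 0.15, adjusted p = 0.0013) and Itpr2 from 99.2, 93.2 and 76.9 to 43.6, 34.4 and 36 CPM. Itpkc, a kinase that phosphorylates IP3, rose from 4.17, 2.78 and 4.47 to 17.6, 9.03 and 37.8 CPM (log2 fold change 2.50, SE 0.50, adjusted p = 0.0123). In the calcium store and IP3 list 5 of 22 fell and 1 rose. The falls were 2 without control 3 and 3 without control 2, and the rises 2 without treated 3. All 5 were among its 12 long genes (41.7%). The endocytic receptor Lrp1 went from 2729.8, 2910.5 and 2258 to 997, 871 and 1287 CPM (log2 fold change -1.32, SE 0.20, adjusted p = 0.00432). The EGF receptor gene Egfr went from 415, 256 and 215 to 78.9, 85.2 and 142 CPM, with its call lost in 3 of 20 alternatives (adjusted p up to 0.109), including those without treated 1 and treated 2. The insulin receptor gene Insr went from 189, 126 and 144 to 49.7, 48 and 82.9 CPM, lost in 1 of 20 alternatives (adjusted p up to 0.0657). Znrf3, which removes Wnt receptors from the membrane, went from 8.61, 8.84 and 7.03 to 1.4, 2.34 and 1.98 CPM. Each of these receptor genes spans over 55.1 kb. Trib1, a pseudokinase, rose from 133, 46.3 and 69.5 to 291, 414 and 340.4 CPM, with its call lost in 1 of 20 alternatives (adjusted p up to 0.0589), the fit without control 3.

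A minority of calls ran against the trend with span. Of the 3139 long genes 47 were called higher, and of the 3140 genes of up to 10.4 kb 27 were called lower. Those named here have the lowest p in each set, a rule added after the data were seen. Frmd4b, a FERM domain gene of 331 kb, went from 93.2, 51.5 and 63 to 251, 214 and 164 CPM (log2 fold change 1.60, SE 0.24, adjusted p = 0.00403). Adcy1, an adenylyl cyclase of 115 kb, went from 9.34, 5.96 and 9.24 to 40.6, 31.1 and 41.6 CPM (log2 fold change 2.21, SE 0.25, adjusted p = 0.00179), and Synpo, an actin-associated protein, from 9.88, 6.52 and 8.84 to 50.1, 85.3 and 38.4 CPM. Among genes of up to 10.4 kb, Myorg, a glycosidase gene of 7.47 kb, went from 81.2, 104 and 86.4 to 30.3, 40.6 and 36.9 CPM (log2 fold change -1.33, SE 0.16, adjusted p = 0.00226). Lrfn4 went from 11.8, 20.01 and 11.4 to 2.31, 1.62 and 3.61 CPM and Fn3krp, a ketosamine kinase, from 7.26, 10.3 and 9.24 to 2.67, 3.7 and 3.27 CPM. Lrfn4 lies within the span of the abundant Pcx. Id2 belongs to the same set.

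Metabolic lists were mixed. The fatty acid oxidation and glucose lists had shares of calls near those of all tested genes (7.09% higher, 8.01% lower). Of 25 lipogenesis genes 3 rose (12%) and 1 fell (4%), the fall being 1 of 10 long genes. Scd1, the stearoyl-CoA desaturase, went from 1599, 1735 and 2321 to 10800.0, 5584 and 5284 CPM (log2 fold change 1.94, SE 0.30, adjusted p = 0.00457). Acaca, the cytosolic acetyl-CoA carboxylase, went from 249.6, 194 and 240.5 to 105, 132 and 105 CPM, the opposite direction, with its call lost in 1 of 20 alternatives (adjusted p up to 0.0513). Acaca was lower still after 25 mg/kg (48.9, 59 and 43 CPM), as was Acacb in the closing section. For Acaca the difference between the doses did not pass (log2 difference 1.18, edgeR quasi-likelihood, adjusted p = 0.209). Pnpla3, a lipid droplet hydrolase, rose from 45.8, 34.1 and 24.1 to 83.2, 72.1 and 119 CPM, with its call lost in 4 of 20 alternatives (adjusted p up to 0.105), including those without treated 3, control 2 and control 3. The lipogenesis rises numbered 1 without control 2 or control 3. Among 34 fatty acid oxidation genes 3 rose (8.82%) and 3 fell (8.82%). The rises numbered 0 without control 2 or control 3 and 1 without low-dose 3, treated 2 or control 1. Of the 3 falls, 2 were among 3 long genes. Ppp1r3b, which targets a phosphatase to glycogen, went from 359, 336 and 298 to 94.6, 179.7 and 89.9 CPM (log2 fold change -1.45, SE 0.27, adjusted p = 0.00982), and Pfkfb1, which sets fructose 2,6-bisphosphate in liver, from 100.1, 101 and 93.7 to 39.7, 47.3 and 54.5 CPM (log2 fold change -1.06, SE 0.16, adjusted p = 0.0041). These last are the 2 of 29 glucose genes that fell (6.9%), 1 of them among 6 long genes, while 2 rose (6.9%). The glucose rises numbered 0 without control 1, control 2 or control 3 and 1 without treated 2 or treated 3. Dhcr7, an enzyme of cholesterol synthesis, rose from 279, 232 and 228 to 739, 604 and 547 CPM, with its call lost in 2 of 20 alternatives (adjusted p up to 0.057), including that without control 3.

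Glucocorticoid and clock genes were called in both directions. Fkbp5 and Zbtb16, both induced by glucocorticoids, went from 335, 262 and 255 to 57.5, 55.2 and 119 CPM and from 117, 81.5 and 102 to 10.2, 7.47 and 23.9 CPM (log2 fold change -2.86, SE 0.46, adjusted p = 0.00528). Fkbp5 lost its call in 1 of 20 alternatives (adjusted p up to 0.0517). Dusp1, also a glucocorticoid target, rose from 73.8, 53.6 and 56 to 182, 155 and 333 CPM (log2 fold change 1.87, SE 0.28, adjusted p = 0.00427), so that 2 of 16 glucocorticoid genes rose and 2 fell. The rises were 1 without treated 2 or control 3, and both falls were among 6 long genes. Of 22 clock genes 4 rose (18.2%) and 5 fell (22.7%), 2 of the falls among 4 long genes. The repressor gene Cry2 went from 47.6, 48.8 and 45.5 to 124, 96.4 and 81.8 CPM (log2 fold change 1.09, SE 0.17, adjusted p = 0.00528) and Clock from 36.2, 29.6 and 27.1 to 19.8, 17.9 and 11.5 CPM, with its call lost in 4 of 20 alternatives (adjusted p up to 0.102), including those without control 1 and control 3. The clock falls numbered 1 without control 1 or control 3 and 3 without treated 1 or treated 2, and the rises 1 without control 3 and 2 without low-dose 1, treated 2, control 1 or control 2.

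The synthetic and detoxifying functions of the hepatocyte showed few calls. Of 33 P450 genes none rose and 1 fell, Cyp2j5, not among the 4 long genes (log2 fold change -0.73, SE 0.21, adjusted p = 0.046), with its call lost in 13 of 20 alternatives (adjusted p up to 0.241), including those without low-dose 1, low-dose 3, treated 1, treated 2, treated 3, control 1, control 2 and control 3. Cyp3a11, of the family that activates pyrrolizidine alkaloids, was at 3221, 3153 and 2714 CPM with NaCl and at 2218, 3157 and 3329 CPM after 50 mg/kg. The groups overlapped, and the 95% interval of the log2 fold change was -0.45 to 0.33. Periportal genes gave no call among 24, acute phase genes none among 29 and respiratory chain genes none among 51. At an unadjusted p under 0.05 these 3 lists had 5, 0 and 1 members. DESeq2 called 2 higher and 1 lower in the first, 0 and 0 in the second and 0 and 0 in the third. The respiratory chain list had a median log2 fold change of 0.18, with 46 of 51 members above 0. Of the 51, 34 span up to 10.4 kb, and their median was 0.21, against 0.31 for all tested genes of that span. Among 36 conjugation genes 3 rose (8.33%, near the 7.09% of all genes) and 1 fell, among 3 long genes. The fall was Ugt1a9, which shares exons with the other Ugt1a genes, so that its count is uncertain, and the call was lost in 13 of 20 alternatives (adjusted p up to 0.195), including those without low-dose 1, low-dose 3, treated 1, treated 2, treated 3, control 1 and control 3. Ugt2b35, a glucuronosyltransferase, went from 64.1, 59.1 and 76.9 to 209.6, 161 and 119.9 CPM (log2 fold change 1.30, SE 0.22, adjusted p = 0.00585).

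Libraries of the treated group differed in inflammatory transcripts. The acute phase list had a mean centred log2 CPM of 0.45, -1.13 and 1.51 after 50 mg/kg and of 1.33, -0.19 and 0.63 with NaCl. The neutrophil and monocyte markers stood at -0.01, -0.41 and 2.49 after 50 mg/kg and at 0.72, -0.58 and -0.01 with NaCl, and none of 11 passed. Their summed levels were between 61.79 and 98.69 CPM with NaCl and between 67.97 and 352.5 CPM after 50 mg/kg. Of 14 Kupffer cell markers 1 rose, Cd68, from 13, 10.6 and 11.5 to 20.4, 26.8 and 31.2 CPM, while the list's median log2 fold change was 0.08. No marker of cholangiocytes, sinusoidal endothelium or stellate cells passed, among 8, 16 and 13 tested. Cd3e, a chain of the T cell receptor complex, went from 0.202, 0.202 and 0.351 to 8.38, 32.3 and 3.13 CPM (log2 fold change 5.80, SE 0.97, adjusted p = 0.00613), and it was the 1 call among 6 tested T and NK cell markers. The T and NK cell markers summed to 4.3 to 5.98 CPM with NaCl and 11.4 to 35.2 CPM after 50 mg/kg. In treated 2, Cd3e made up most of this sum. The part of these cell markers and of the inflammatory lists in other results was not tested. Cd3g of the same complex, chosen after its values were seen, was at 0.605, 0.253 and 0.301 CPM with NaCl and at 0.608, 0.26 and 0.477 CPM after 50 mg/kg. By contrast, the ribosome biogenesis list stood at -0.23, -0.49 and -0.36 with NaCl and at 0.28, 0.28 and 0.39 after 50 mg/kg, and the hepatocyte transcription factors at 0.45, 0.45 and 0.37 and at -0.19, -0.21 and -0.17.

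**Figure D5:**
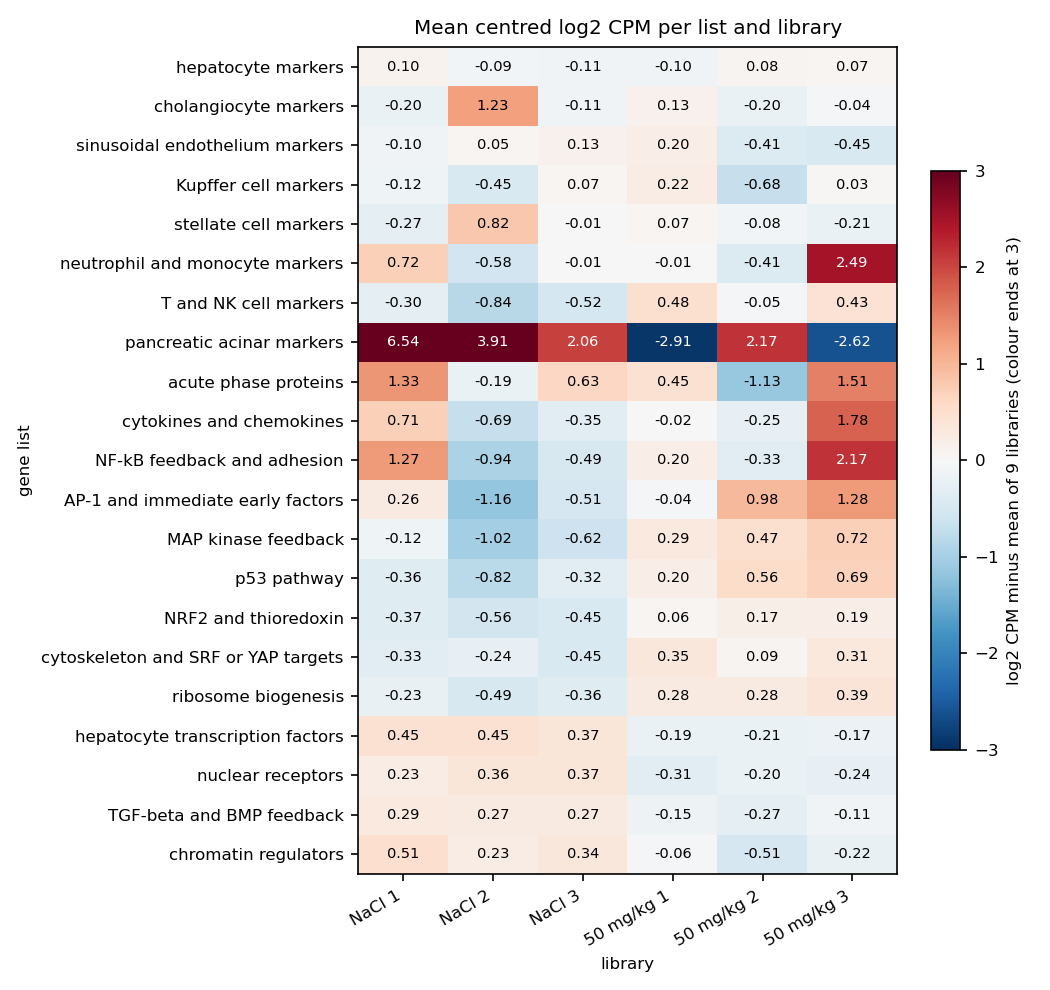
Mean log2 CPM per gene list in each NaCl and 50 mg/kg library, centred on the mean of all 9 libraries (red above, blue below, colours ending at 3). Inflammatory and neutrophil lists differ between libraries of a group (2.49 for neutrophil and monocyte markers in treated 3), whereas the ribosome biogenesis and hepatocyte transcription factor lists separate the groups.

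Compared directly, the 50 and 25 mg/kg groups differed in 1 of 12557 genes (0.00796%), with 1079 genes at an unadjusted p under 0.05. DESeq2 called 72 genes and limma-voom 1. The gene was Acacb, given in the closing section. For Atf3 the log2 difference between the doses was 1.22, with a 95% interval of -0.09 to 2.53, and for Jun it was 1.87 (0.58 to 3.16). For Tnfrsf12a it was -0.09 (-0.63 to 0.46), for Nop56 0.54 (0.02 to 1.05) and for Rxra -0.23 (-0.81 to 0.35). These intervals are not adjusted for the number of genes, and none of the 5 genes passed (adjusted p from 0.546 for Jun to 0.954 for Tnfrsf12a).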

How the data were processed

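Liver RNA was enriched with oligo(dT) and sequenced as libraries of about 300 bp fragments, per the labels' protocols. Reads were aligned to GRCm38 with HISAT2, per the submitters' processing notes. For the counting tool, its annotation and its use of strand, nothing is stated in the labels, and the labels mention no molecular identifiers. The authors deposited a read count and an FPKM value per gene and library for 21936 genes, of which 21894 IDs were found in GENCODE M21. The deposited FPKM values were not tested and give no result here.

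From the deposited counts, edgeR 4.0.16 (R 4.3.3) kept 12557 genes (filterByExpr), scaled libraries by TMM and fitted 1 mean per group over all 9 libraries, which share 1 estimate of the spread. Contrasts were tested by quasi-likelihood with Benjamini-Hochberg adjustment and a threshold of 0.05. CPM use the TMM-scaled library size, SE was derived from the F statistic as the size of the log2 change divided by its square root, and intervals of 95% use t with the moderated degrees of freedom. "Lost" calls refer to 20 alternatives: other scalings and filters, 2 other tools (limma 3.58.1, DESeq2 1.42.0), the 6 libraries alone, a replicate block and left-out libraries. The count of changes beyond 2-fold used glmTreat.

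The 63 gene lists, the comparison and the members were chosen with earlier results of these data known. Named genes were the 12 rises and 12 falls that were largest, of lowest p or of largest difference in mean CPM (at least 1 CPM, no overlap, no predicted names, no acinar genes), up to 5 called members of lowest p per list, and 8 genes named in any case (Atf3, Cyp3a11, Gpx4, Slc7a11, Acsl4, Ptgs2, Hmox1 and Chac1). Acacb, Alb, Atf4, Bbc3, Bcl6, Btbd19, Ccng1, Cd3g, Cebpa, Ddx10, Egr1, Fos, Foxa2, Gclm, Hexim1, Hnf4a, Junb, Nqo1, Nr1i2 and Nr1i3 and the promoters were chosen after values were seen. Some genes that this rule names are not reported here. The steps were tested on simulated counts.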

Additional observations from a re-analysis of the deposited data

Results flagged for a closer look

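Acacb, the acetyl-CoA carboxylase of the outer mitochondrial membrane, was the only gene called by the edgeR test in the direct comparison of the doses. It was at 375, 445 and 483 CPM with NaCl, at 122, 119 and 135 CPM after 25 mg/kg and at 329, 339 and 372 CPM after 50 mg/kg. The 25 mg/kg libraries were below all others. The 50 mg/kg group was higher than the 25 mg/kg group by 1.47 on the log2 scale (edgeR quasi-likelihood, adjusted p = 0.0213). Against NaCl the log2 fold change was -0.32 (adjusted p = 0.153) at 50 mg/kg and -1.79 at 25 mg/kg, with the same NaCl libraries in both. Its adjusted p was 0.0786 without control 2, 0.0619 without control 3, 0.109 without low-dose 1, 0.251 without low-dose 2 and 0.174 without low-dose 3. It was 0.114 without treated 2 and 0.06 without treated 3. The difference itself lay between 1.38 and 1.52 in all alternatives, 1.38 with library totals.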

How the results depend on the processing

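Against 1896 calls (890 higher, 1006 lower), leaving out 1 library gave 700 to 1921 calls, 294 to 894 higher and 406 to 1027 lower, with the fewest without control 3. Without control 1 and treated 2, the libraries of each group with the most acinar transcripts, 653 genes were called (352 higher, 301 lower), and without control 1 and treated 3, 1146 (584 higher, 562 lower). Fewer samples entered these fits. With the replicate number as a block 1229 were called (552 higher). Same-numbered NaCl and 50 mg/kg libraries had correlations of -0.23, 0.136 and -0.0729 in their deviations. With 3 libraries per group these cannot show whether the numbers pair samples, which the labels do not say. limma-voom called 781 higher and 1046 lower, and DESeq2 1277 and 1315. Of the 20 alternatives, 188 rises and 221 falls were called in every one that gave the gene a value. Between the doses, where 1 gene was called, none was called with scaling by library totals, with only the libraries of those groups or under the replicate block, 0 to 3 when 1 library was left out and 72 by DESeq2. The cause was not tested.

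Of 164 named genes, 9 changed sign in at least 1 alternative, and none of these had passed. Over the fits that left out 1 library or one of the pairs above, their log2 fold change ran from -0.248 to 0.136 for Acsl4, from -0.194 to 0.235 for Ccng1 and from -0.029 to 0.958 for Cd3g. For Cyp3a11 the range was -0.173 to 0.110, for Egr1 -1.262 to 0.246, for Hmox1 -1.108 to 2.245, for Junb -0.274 to 1.081 and for Nr1i2 -0.025 to 0.360. Acsl4 was at 0.039 and Ccng1 at -0.017 by limma-voom, and Alb was at -0.005 and Ccng1 at -0.054 with library totals. Over named genes and alternatives, 158 values kept their direction but lost the threshold. Genes below 1 CPM rest on few reads.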

Other observations

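Signalling molecules between cells changed in single genes. Of 30 cytokine and chemokine genes 3 rose (10%, against 7.09% of all tested genes). In this list 1 gene fell (3.33%, against 8.01%), which is not among the 2 long genes. The rises were 0 without control 3, and the fall 0 without treated 1, control 2 or control 3. Il33, an alarmin released by injured cells, was at 1.75, 2.22 and 1.81 CPM with NaCl and at 5.59, 5.78 and 21.5 CPM after 50 mg/kg, highest in replicate 3 (log2 fold change 2.50, SE 0.53, adjusted p = 0.0146), with the call lost in 1 of 20 alternatives (adjusted p up to 0.0615), the fit without control 3. Cxcl12, a chemokine of stromal and endothelial cells, went from 203, 281 and 270.0 to 130.5, 173 and 143 CPM, with its call lost in 5 of 20 alternatives (adjusted p up to 0.0961), including those without treated 1, treated 3, control 2 and control 3. Among 22 TNF receptor superfamily genes 3 rose (13.6%) and 1 fell (4.55%). The fall was Ltbr, a receptor of lymphotoxin that is not among the 5 long genes, with its call lost in 11 of 20 alternatives (adjusted p up to 0.153), including those without low-dose 2, treated 1, treated 2, treated 3, control 1, control 2 and control 3. Tnfrsf1b, a TNF receptor, went from 37, 28 and 50.6 to 77.2, 82.7 and 134 CPM, with its call lost in 2 of 20 alternatives (adjusted p up to 0.0734). The EGF receptor ligand Tgfa fell from 19.6, 10.7 and 15.5 to 5.77, 6.11 and 9.13 CPM, opposite in direction to Hbegf, with its call lost in 6 of 20 alternatives (adjusted p up to 0.162), including those without treated 1, treated 2, control 1 and control 3.

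Export genes of the canalicular and basolateral membranes showed few calls. Of 26 bile acid genes none rose and 1 fell, 1 of 11 long genes, Atp8b1, a phospholipid flippase, from 66.5, 57.1 and 52.5 to 23.1, 18.6 and 23.3 CPM (log2 fold change -1.44, SE 0.34, adjusted p = 0.0223). Of 18 metal genes 1 rose (5.56%, against 7.09% of all tested genes) and 1 fell (5.56%, against 8.01%), the fall among 5 long genes. The zinc exporter Slc30a1 went from 23.8, 22.1 and 19.5 to 57.6, 79.5 and 27.2 CPM, lowest in replicate 3, and Atp7b, which exports copper into bile, from 64.9, 86.8 and 71.8 to 35.4, 50.1 and 48.7 CPM. The calls were lost for Atp8b1 in 7 of 20 alternatives (adjusted p up to 0.131), including those without treated 1, treated 2, control 1, control 2 and control 3, for Slc30a1 in 7 of 20 alternatives (adjusted p up to 0.0979), including those without treated 1, treated 2, control 1, control 2 and control 3 and for Atp7b in 5 of 20 alternatives (adjusted p up to 0.0812), including those without treated 1, control 2 and control 3. Gzmm, a granzyme of cytotoxic lymphocytes, was at 0.202, 0.101 and 0.502 CPM with NaCl and at 3.22, 19.4 and 4.09 CPM after 50 mg/kg (log2 fold change 4.99, SE 1.19, adjusted p = 0.0222), with its call lost in 7 of 20 alternatives (adjusted p up to 0.127), including those without treated 2, control 1, control 2 and control 3. Its levels were, like those of Cd3e, highest in replicate 2 of the treated group. Of the 12 T and NK cell markers only 6 were high enough to be tested.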
